A study of Mus musculus with 8 samples.

Results

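The Hox genes were followed in C3H10T1/2 cells, a clonal mouse mesenchymal line derived from embryonic fibroblasts, after BMP7 treatment. Single-gene probe sets whose symbol begins with Hoxa, Hoxb, Hoxc or Hoxd and a number were taken, whatever their signal. The 41 described here, of 22626 on the array, cover 34 of 13243 genes, 1 of them the antisense RNA Hoxa11os. Cells grown to confluence were exposed for 3 days to 3.3 nM BMP7 or to vehicle. Total RNA of 4 BMP7 samples and 4 Vehicle samples was hybridised to Affymetrix GeneChip mouse 430A arrays, 1 array per sample. All samples are this 1 line, with no genetic change named, and nothing in the labels says whether the 4 samples of a group came from separate cultures, so p-values cover only the variation among these arrays, part or all of which may be technical. Hoxa6, Hoxb8, Hoxc10, Hoxc11 and Hoxc12 had no single-gene probe set and were not analysed here. Values are MAS5 signals, a linear intensity for each probe set, with all arrays scaled alike; the signals of different probe sets were not set against each other, since probes differ in how strongly they hybridise.

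Hox genes encode homeodomain transcription factors and lie in 4 clusters, in which the order along the chromosome follows the order of expression from head to tail in the embryo. Genes at the 3' end of a cluster (the low numbers) pattern the hindbrain and neck, the middle ones the trunk, and those at the 5' end (the high numbers) the lumbar, sacral and distal limb regions. Mesenchymal cells and fibroblasts in culture keep a combination of active Hox genes that reflects the body site they came from. Hox proteins bind DNA together with homeodomain cofactors of the TALE class, the Pbx, Meis and Pknox proteins. Bone morphogenetic proteins such as BMP7 signal through SMAD transcription factors and drive C3H10T1/2 cells towards cartilage, bone or fat.

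Promoter sequence is shown for Hoxa3, on which the results turn, for Hoxa2 and Hoxa5, 2 nearby genes of the cluster, and for Meis1, a Hox cofactor that fell with BMP7. Each window runs from 250 bases before to 50 bases after the annotated start, 5' to 3', from RefSeq on build GRCm38.p6. For Hoxa3 this start lies upstream of Hoxa4, Hoxa5 and Hoxa6, which the annotation places inside the Hoxa3 span. Whether these cells use this start was not tested. The windows lie at chr6:52164782-52165081 (Hoxa2), chr6:52213018-52213317 (Hoxa3), chr6:52204538-52204837 (Hoxa5) and chr11:19018920-19019219 (Meis1), all on the minus strand. Capitals mark matches, on either strand, to TGATTNAT (a Hox-Pbx motif), TGACAG (a Meis motif) or GGCGCC (a SMAD motif); no 2 matches overlapped in the windows shown.
Hoxa2: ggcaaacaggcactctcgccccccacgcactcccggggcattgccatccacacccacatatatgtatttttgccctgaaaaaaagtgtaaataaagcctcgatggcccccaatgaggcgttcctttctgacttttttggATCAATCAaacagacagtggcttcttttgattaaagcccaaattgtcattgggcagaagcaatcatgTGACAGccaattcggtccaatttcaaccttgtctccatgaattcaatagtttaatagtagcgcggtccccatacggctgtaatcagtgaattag
Hoxa3: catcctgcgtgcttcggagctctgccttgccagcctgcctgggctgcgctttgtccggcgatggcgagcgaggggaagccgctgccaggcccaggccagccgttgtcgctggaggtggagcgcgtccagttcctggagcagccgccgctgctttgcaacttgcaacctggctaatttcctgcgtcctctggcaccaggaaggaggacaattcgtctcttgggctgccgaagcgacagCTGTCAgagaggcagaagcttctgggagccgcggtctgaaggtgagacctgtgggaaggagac
Hoxa5: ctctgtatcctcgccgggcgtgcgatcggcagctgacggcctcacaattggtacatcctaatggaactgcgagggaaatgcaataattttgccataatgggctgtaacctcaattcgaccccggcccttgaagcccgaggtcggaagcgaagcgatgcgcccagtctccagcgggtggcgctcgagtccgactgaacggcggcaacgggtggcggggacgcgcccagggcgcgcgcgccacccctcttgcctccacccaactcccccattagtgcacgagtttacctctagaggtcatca
Meis1: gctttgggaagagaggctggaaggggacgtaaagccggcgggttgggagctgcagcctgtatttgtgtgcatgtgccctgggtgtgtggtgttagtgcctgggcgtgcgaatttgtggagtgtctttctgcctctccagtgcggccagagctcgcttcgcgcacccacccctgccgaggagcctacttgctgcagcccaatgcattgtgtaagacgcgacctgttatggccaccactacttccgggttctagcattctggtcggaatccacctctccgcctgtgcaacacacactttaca

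The Hoxa2 window held 1 Hox-Pbx match and 1 Meis match, and the Hoxa3 window held 1 Meis match, read on the opposite strand. The Hoxa5 and Meis1 windows held none of the 3 motifs. RefSeq windows were found for 21 of the 34 genes, as 23 windows in all, with none for Hoxa4. GGCGCC was present in 5 of these 23 windows, TGACAG in 3 and TGATTNAT in 2. Among all 32851 mouse promoter windows of this length, GGCGCC was present in 11.9%, TGACAG in 19.2% and TGATTNAT in 3.22%. The median GC content was 58.0% in the Hox windows and 52.7% in all windows, and these shares were not adjusted for it. A match is only a run of letters; binding was not measured.

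The arrays were not alike in quality, and 1 Vehicle array stood apart. On Vehicle array 3 the Actb control probe sets read 6.55 times more signal at the 3' end of the transcript than at the 5' end, against 1.17 to 1.40 on the other 7 arrays, and the added hybridisation controls averaged 13.25 on the log2 scale, against 11.72 to 12.60. Signals of all probe sets correlated between pairs of BMP7 arrays at r = 0.947 to 0.966, and between pairs of Vehicle arrays at r = 0.855 to 0.944. All 10 mesenchymal fibroblast markers passed the signal filter, 2 of them called (Col3a1 and Pdgfra), where 3.13% of all tested probe sets were, and their summed signals were 178820 to 207235 on BMP7 arrays and 233954 to 332404 on Vehicle arrays. Of the markers of other cell types, 2 of 5 haematopoietic (Adgre1 and Csf1r), 1 of 4 endothelial (Kdr), 1 of 5 epithelial (Krt5), none of 3 neuronal and none of 3 pluripotent genes passed it, with none called. The summed haematopoietic signal was 1521 to 2414 on BMP7 arrays and 1515 to 1947 on Vehicle arrays, and the endothelial sum was 719 to 1311 and 831 to 1037 on the same arrays. The epithelial sum was 718 to 923 on BMP7 arrays and 670 to 991 on Vehicle arrays, the neuronal sum 305 to 579 and 258 to 513, and the pluripotent sum 127 to 233 and 82.3 to 214. Whether these marker sums bear on the Hox values was not tested. In a culture, fewer cells with a transcript and less of it per cell cannot be told apart.

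No Hox probe set passed the test between BMP7 and Vehicle. Of the 41, 10 passed the signal filter and were tested: 8 of 14 in the Hoxa cluster on chromosome 6 (Hoxa2, Hoxa3 with 2 probe sets, Hoxa4, Hoxa5, Hoxa9, Hoxa10 and Hoxa11), 2 of 8 in the Hoxc cluster on chromosome 15 (both Hoxc6), none of 10 in the Hoxb cluster on chromosome 11 and none of 9 in the Hoxd cluster on chromosome 2. The filter required a mean log2 value of at least 8.41 over the 8 arrays, a signal near 325, which 13576 probe sets reached. With limma on log2(signal + 16) and a Benjamini-Hochberg adjusted p threshold of 0.05, 0 of 10 were called, where 3.13% of all tested probe sets were called (1.63% higher and 1.5% lower with BMP7). At an unadjusted p under 0.05 there were 3 of 10, against 21.8% of all tested probe sets. These 3, from Hoxa3 and Hoxa4, were also the only tested members whose 4 BMP7 arrays all lay above the 4 Vehicle arrays, which 8.3% of all tested probe sets did; 0 of 10 lay wholly below, which 7.1% of all tested probe sets did. The filter used the mean over all 8 arrays, so a probe set high in a single group could pass through that group. Hoxa4 did so, at 631.9 to 714.9 on BMP7 arrays and 138.9 to 494.7 on Vehicle arrays. Its place among the 10 is therefore not independent of its difference. The median log2 difference was -0.02 over the 10 and 0.04 over all tested probe sets. Testing all 41 without the filter gave 0 calls, where 1.54% of 22626 were called (0.743% higher and 0.8% lower with BMP7), and 4 at an unadjusted p under 0.05, where 16.4% were. The count of Hox calls was 3 with limma's array weights and 2 without Vehicle array 2, all of them Hoxa3 or Hoxa4. Over all 13576 tested probe sets, 1778 were called with array weights and 310 without Vehicle array 2, against 425 as reported. The array weights thus raised calls over the whole array and not only among the Hox probe sets.

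**Figure D1:**
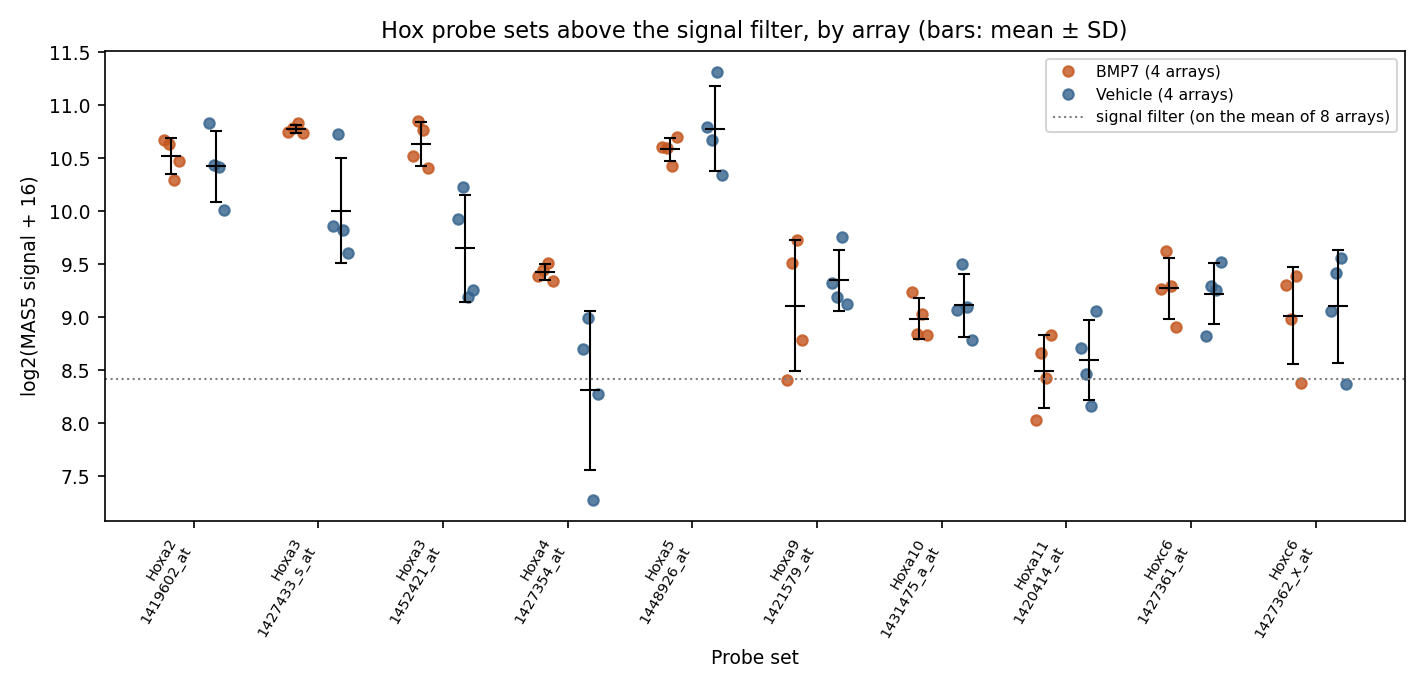
Log2(MAS5 signal + 16) on each array for the 10 Hox probe sets above the signal filter, BMP7 left and Vehicle right; bars show the mean ± SD (n = 4) and the dotted line the filter of 8.41. The BMP7 and Vehicle points separate only for both Hoxa3 probe sets and for Hoxa4.

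Hoxa3 patterns the neck and the organs of the pharynx, the thymus and parathyroid among them. Probe set 1452421_at read 1450.7, 1829.5, 1725.0 and 1343.3 on BMP7 arrays, against 954.9, 1179.2, 569.5 and 593.6 on Vehicle arrays. The BMP7 arrays all lay above the Vehicle arrays, of which arrays 3 and 4 were lowest. The means were 1587 ± 228 with BMP7 and 824 ± 295 with vehicle (SD, n = 4 each). The difference fitted on log2(signal + 16) was 0.99 ± 0.26 (SE), 1.98-fold, with a 95% interval of 0.42 to 1.56, and limma gave an adjusted p of 0.0651. A second Hoxa3 probe set, 1427433_s_at, read 1704.3, 1749.7, 1800.3 and 1691.6 on BMP7 arrays, against 910.6, 1680.1, 891.1 and 763.1 on Vehicle arrays. The BMP7 arrays were within a narrow range, while Vehicle array 2 came close to them and the other 3 Vehicle arrays were far lower. This probe set averaged 1736 ± 49.3 with BMP7 and 1061 ± 418 with vehicle (SD, n = 4 each). Its fitted log2 difference was 0.77 ± 0.24 (SE), 1.71-fold, with an interval of 0.24 to 1.31 (limma adjusted p = 0.108). The 2 probe sets thus gave differences of the same sign and similar size, neither past the threshold. Without Vehicle array 2 both passed, at log2 differences of 1.18 (adjusted p = 0.0409) and 1.01 (0.0223). Without Vehicle array 3 they were 0.84 (0.0692) and 0.71 (0.110). Without Vehicle array 1 they were 1.08 (0.102) and 0.72 (0.186), and without Vehicle array 4 0.86 (0.0763) and 0.64 (0.133). Leaving out any 1 BMP7 array gave limma adjusted p of 0.114 to 0.195 for 1452421_at and 0.181 to 0.248 for 1427433_s_at.

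Hoxa4 acts in the cervical skeleton and lies next to Hoxa3. The RefSeq annotation places Hoxa4, Hoxa5 and Hoxa6 inside the annotated span of Hoxa3, and whether the Hoxa3 and Hoxa4 probe sets read separate transcripts was not tested. Probe set 1427354_at read 655.0, 682.7, 714.9 and 631.9 on BMP7 arrays, against 398.6, 494.7, 138.9 and 293.5 on Vehicle arrays. The groups did not overlap, and Vehicle array 3, which stood apart in the controls, was the lowest of the 8. The means were 671 ± 35.8 with BMP7 and 331 ± 152 with vehicle (SD, n = 4 each), and the fitted log2 difference was 1.11 ± 0.35 (SE; 2.16-fold; interval 0.35 to 1.87; limma adjusted p = 0.103). Without Vehicle array 3 it was 0.77 (adjusted p = 0.0847), with the 3'/5' ratio of Actb as a covariate 0.74 (0.138), and with the hybridisation controls added as a covariate 0.57 (0.692).

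Hoxa4 had 2 more probe sets, both below the filter. Probe set 1420226_x_at read 254.8, 162.3, 152.3 and 263.4 on BMP7 arrays, against 137.3, 120.6, 148.5 and 141.8 on Vehicle arrays. Its groups did not overlap, by a margin of a few signal units between BMP7 array 3 and Vehicle array 3. Over the 41 probe sets, 4 lay wholly higher with BMP7 and none wholly lower, where 5.88% and 5.6% of all 22626 did. The suffix x marks a probe set in which some probes also match other sequences. The log2 difference, fitted without the filter, was 0.52 ± 0.34 (limma adjusted p = 0.492). Probe set 1420227_at read 158.5, 47.0, 153.5 and 212.1 on BMP7 arrays, against 105.1, 41.4, 45.9 and 16 on Vehicle arrays, and the groups overlapped through BMP7 array 2 and Vehicle array 1. It gave 1.24 ± 0.53 without the filter (limma adjusted p = 0.272). All 5 probe sets of Hoxa3 and Hoxa4 had a positive difference, and none passed the adjusted threshold.

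**Figure D2:**
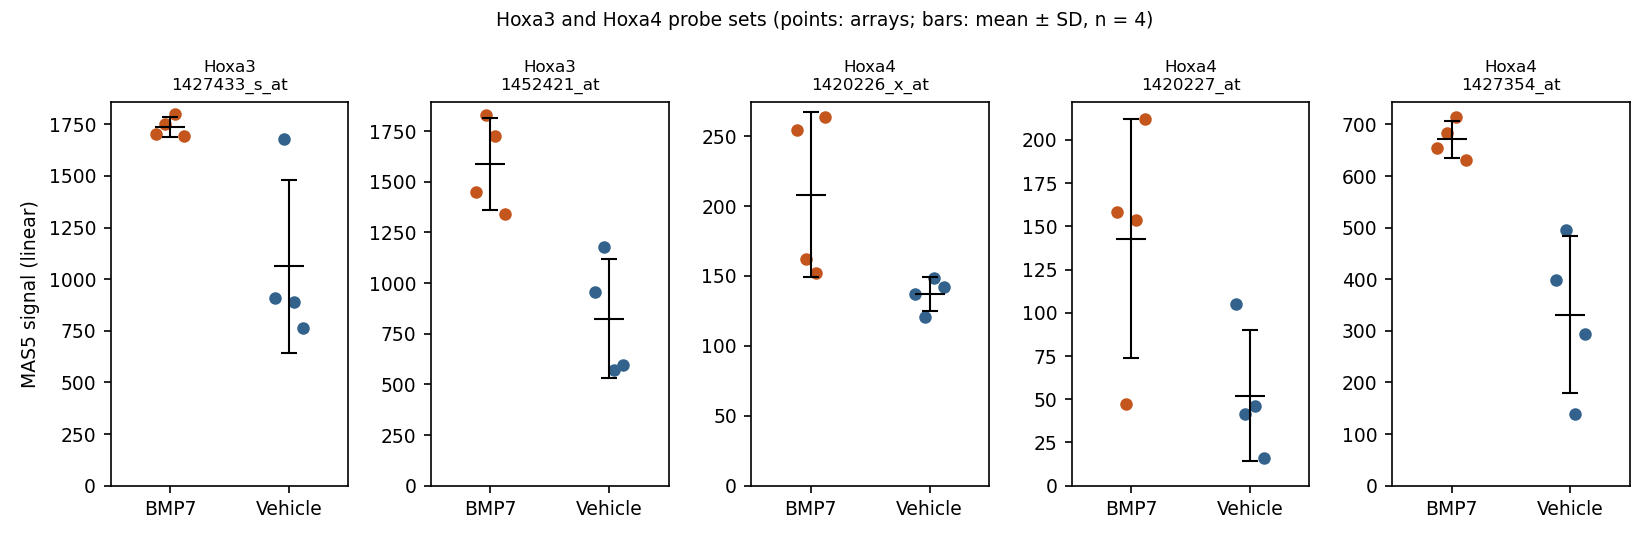
Linear MAS5 signal on each array for the 5 probe sets of Hoxa3 and Hoxa4, each panel with its own axis from 0; BMP7 left, Vehicle right, bars mean ± SD (n = 4). Hoxa3 1427433_s_at and Hoxa4 1427354_at show a tight BMP7 group above a wider Vehicle group, Hoxa3 1452421_at has similar spreads in both groups, and Hoxa4 1420227_at overlaps.

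In the authors' deposited table, 3 of the 41 Hox probe sets have a p under 0.05 without adjustment. These are Hoxa3 1452421_at with a deposited ratio of 1.93 and p of 0.00731, Hoxa3 1427433_s_at with 1.64 and 0.0471, and Hoxa4 1427354_at with 2.02 and 0.0182 in the authors' deposited table. Among the 10 tested probe sets, they are the same 3 that were under 0.05 without adjustment in limma, on the same arrays. Over all 41 without the filter limma gave 4, where 16.4% of all 22626 probe sets were under 0.05 without adjustment. The fourth was Hoxa4 1420227_at, with an unadjusted limma p of 0.0381 and a deposited p of 0.0736. The share of all probe sets with a deposited p under 0.05 was not counted, so the 3 are not shown to be an excess.

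The BMP7 and Vehicle arrays overlapped for Hoxa2 and Hoxa5, 2 nearby genes of the cluster. Hoxa2 sets the identity of the second pharyngeal arch. It read 1611.7, 1567.2, 1239.5 and 1403.8 on BMP7 arrays, against 1804.9, 1367.8, 1346.6 and 1018.5 on Vehicle arrays. Both the highest and the lowest value were Vehicle arrays, and the log2 difference was 0.09 (interval -0.37 to 0.56; limma adjusted p = 0.827). Hoxa5 acts in the lung and at the border of the neck and thorax. It read 1542.4, 1528.9, 1362.1 and 1643.4 on BMP7 arrays, against 1757.7, 1616.5, 2523.4 and 1279.0 on Vehicle arrays. Here Vehicle array 3 was highest and Vehicle array 4 lowest, and the log2 difference was -0.20 (interval -0.68 to 0.29; limma adjusted p = 0.625).

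The tail-end Hoxa genes above the filter overlapped as well. Hoxa9, a gene of the posterior trunk and of blood progenitors, read 323.7, 711.9, 834.0 and 425.0 on BMP7 arrays, against 622.3, 567.2, 850.9 and 540.6 on Vehicle arrays. The BMP7 arrays spread more widely than the Vehicle arrays, and the log2 difference was -0.24 (interval -0.93 to 0.45; limma adjusted p = 0.686). Hoxa10, which patterns the lumbar spine and the uterus, read 588.0, 441.8, 508.3 and 438.2 on BMP7 arrays, against 518.9, 710.6, 530.4 and 425.4 on Vehicle arrays. Only Vehicle array 2 stood clear of the rest, and the log2 difference was -0.13 (interval -0.65 to 0.40; limma adjusted p = 0.787). Hoxa11, needed for the forearm and kidney, read 245.3, 388.7, 328.5 and 440.1 on BMP7 arrays, against 402.1, 337.2, 270.9 and 515.7 on Vehicle arrays. Its arrays interleaved, with a log2 difference of -0.11 (interval -0.76 to 0.54; limma adjusted p = 0.856).

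Hoxc6, a gene of the thoracic region, was the only member outside the Hoxa cluster above the filter. Probe set 1427361_at read 597.6, 770.7, 610.6 and 464.9 on BMP7 arrays, against 437.3, 609.7, 595.7 and 718.5 on Vehicle arrays, and the groups interleaved (log2 difference 0.05, interval -0.49 to 0.58, limma adjusted p = 0.930). Probe set 1427362_x_at read 615.0, 490.5, 652.5 and 317.3 on BMP7 arrays, against 518.6, 668.4, 739.2 and 314.5 on Vehicle arrays. Array 4 was the lowest of both groups there, and the log2 difference was -0.09 (interval -0.80 to 0.62; limma adjusted p = 0.897). The remaining Hoxc6 probe set, 1427454_at, lay below the filter at 10.4 to 20.4 on BMP7 arrays and 15.5 to 23.9 on Vehicle arrays. The 7 tested probe sets other than those of Hoxa3 and Hoxa4, from 6 genes, had log2 differences of -0.24 to 0.09, and their 95% intervals reached from -0.93 to 0.62. Each of these 7 changed sign under at least 1 alternative setting, whereas Hoxa3 and Hoxa4 kept theirs under every alternative that tested them. The differences of the 7 were small beside their SE of 0.21 to 0.33. This contrast therefore restates the sizes on the same arrays and is not a separate test.

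The remaining 31 probe sets lay below the filter and included all those of 26 genes, so their differences come from the fit without the filter and none passed. In the Hoxa cluster, apart from Hoxa4, these were Hoxa7, Hoxa9 1455626_at, Hoxa11os and Hoxa13, with log2 differences of 0.58, -0.20, 0.12 and -0.05. Hoxa13, the digit and genital gene at the tail end, read 132.3 to 259.7 on BMP7 arrays and 136.3 to 347.3 on Vehicle arrays. In the Hoxb cluster 3 of 10 differences were positive and 7 negative, between -0.73 for Hoxb2, a hindbrain gene, and 0.84 for Hoxb3. Hoxb2 read 87.2, 156.9, 272.5 and 214.5 on BMP7 arrays, against 199.7, 499.3, 266.4 and 271.9 on Vehicle arrays, and the groups overlapped (limma adjusted p = 0.419). Hoxb1, Hoxb5, Hoxb6, Hoxb7, Hoxb9, Hoxb13 and both Hoxb4 probe sets made up the rest, and the signals of the cluster were between 5.3 and 499.3 over all arrays. Hoxb4 1460379_at was the member just under the filter, with a mean log2 value of 8.40, and read 220.4, 323.0, 341.8 and 336.2 on BMP7 arrays, against 367.4, 422.3, 241.3 and 369.7 on Vehicle arrays. The nearest above it was Hoxa11, at 8.54.

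In the Hoxc cluster the untested Hoxc4, Hoxc5, Hoxc6 1427454_at, Hoxc8, Hoxc9 and Hoxc13 had log2 differences of -0.45 to 0.31 and signals between 9.3 and 462.4, with a lowest limma adjusted p of 0.736. In the Hoxd cluster 7 of 9 differences were positive and 2 negative. The positive ones were Hoxd1, Hoxd3, Hoxd8, Hoxd9, Hoxd10, Hoxd12 and Hoxd13, up to 1.01 for Hoxd9, which acts in the limb. Hoxd9 read 39.9, 344.2, 258.8 and 166.7 on BMP7 arrays, against 91.1, 145.0, 41.7 and 45.7 on Vehicle arrays, and BMP7 array 1, the lowest of the 8, made the groups overlap. The negative ones were Hoxd11 at -0.41 and Hoxd4 at -0.92. Hoxd4 read 12.6, 20.8, 14.7 and 10.0 on BMP7 arrays, against 19.8, 28.3, 145.7 and 26.3 on Vehicle arrays, where Vehicle array 3 was well above all others. The lowest limma adjusted p in the Hoxd cluster was 0.368. Over the 41 probe sets 21 differences were positive and 20 negative, with a median of 0.05, against 0.00 over all 22626. The median SE of the untested members was 0.48 on the log2 scale, against 0.21 to 0.35 for the tested ones.

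**Figure D3:**
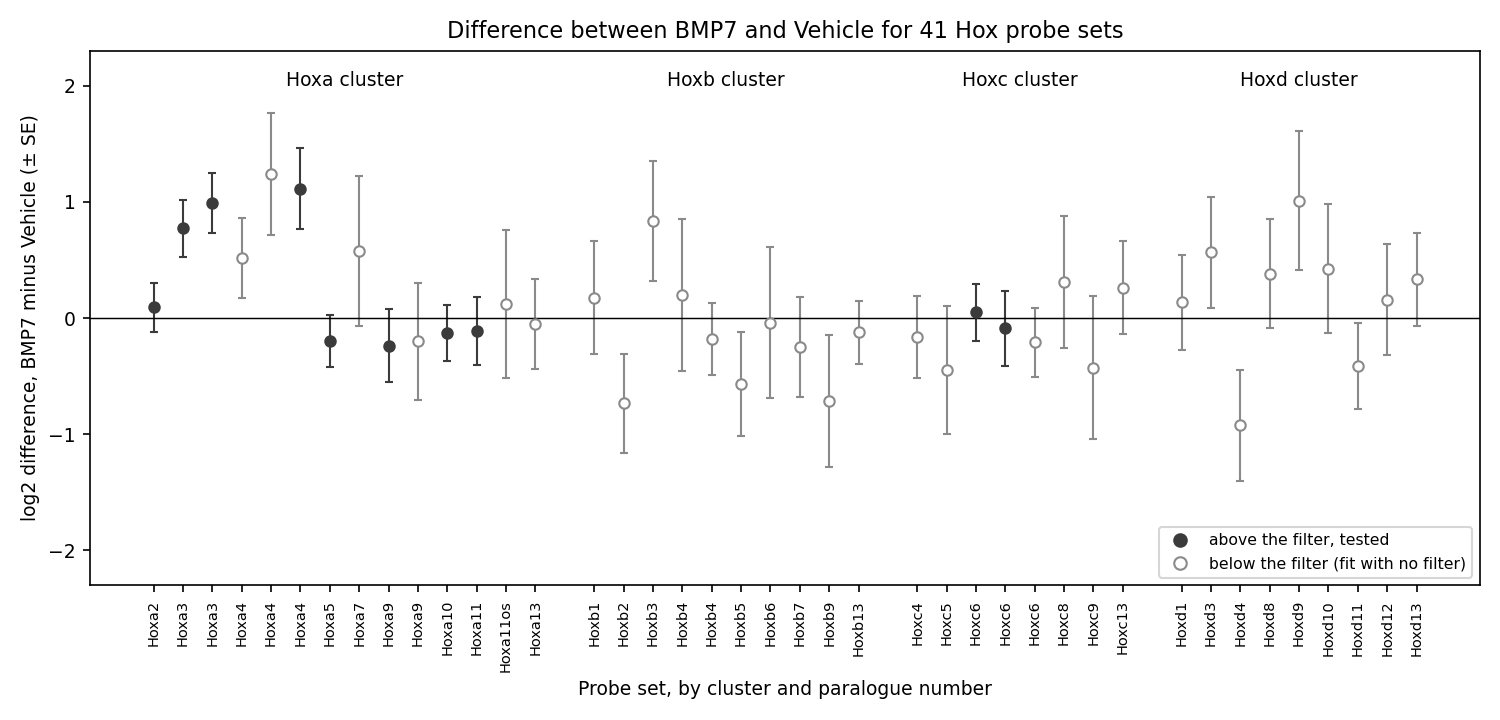
Log2 difference, BMP7 minus Vehicle, with its SE for 41 Hox probe sets in cluster and paralogue order; filled points passed the signal filter, open points come from the fit without it. The highest filled points are Hoxa4 at 1.11 and Hoxa3 at 0.99 and 0.77, and the other 7 filled points lie between -0.24 and 0.09.

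Hox proteins act with TALE homeodomain cofactors, and 6 of the 8 listed cofactors were tested. One of them fell (Meis1) and none rose, where 1.5% of all tested probe sets fell and 1.63% rose, and 4 were under 0.05 without adjustment, where 21.8% of all tested probe sets were. The median log2 difference of the 6 was -0.01, against 0.04 over all tested probe sets. Meis1, which binds DNA with Hox and Pbx proteins, read 537.8, 487.2, 471.8 and 429.2 on BMP7 arrays, against 1210.6, 1478.8, 1174.0 and 707.6 on Vehicle arrays. Every BMP7 array lay below every Vehicle array, with Vehicle array 4 the nearest. The means were 482 ± 44.8 with BMP7 and 1143 ± 320 with vehicle (SD, n = 4 each). The fitted log2 difference was -1.18 ± 0.25 (SE; 2.26-fold lower; limma adjusted p = 0.0323). Its call was lost, with a log2 difference of -1.04 to -1.23, on leaving out Vehicle array 1 (adjusted p = 0.0912), Vehicle array 2 (0.0720), or any 1 of BMP7 arrays 1 to 4 (0.0622, 0.101, 0.109 and 0.104). It was also lost without the filter, at -1.18 (0.0516), and with the hybridisation controls as a covariate, at -0.87 (0.365). It held without Vehicle array 3, at -1.15 (adjusted p = 0.0342), and without Vehicle array 4, at -1.39 (0.00753).

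The other 5 cofactors did not pass. Meis3 read 284.0, 381.5, 331.6 and 188.3 on BMP7 arrays, against 503.7, 526.0, 564.2 and 414.4 on Vehicle arrays. It too lay wholly lower with BMP7, at a log2 difference of -0.76 (limma adjusted p = 0.146). Pbx3 read 861.4, 1076.2, 1223.1 and 1112.7 on BMP7 arrays, against 657.0, 738.9, 468.1 and 839.2 on Vehicle arrays. It lay wholly higher with BMP7, at 0.67 (limma adjusted p = 0.128). Pknox1, also called Prep1, which partners Pbx proteins, had a difference of 0.95 (limma adjusted p = 0.218) that overlapped, and its second probe set gave 0.33. Meis2 gave -0.18, and the 3 probe sets of Pbx2 gave 0.16, -0.04 and 0.37.

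**Figure D4:**
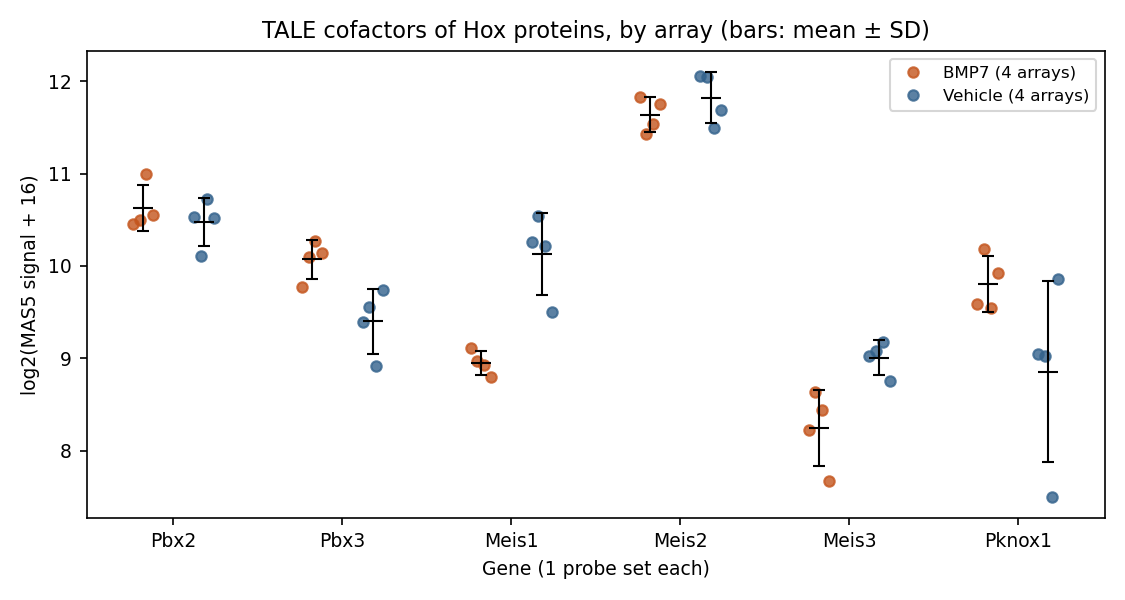
Log2(MAS5 signal + 16) on each array for the 6 tested TALE cofactors, 1 probe set each, BMP7 left and Vehicle right; bars show the mean ± SD (n = 4). Meis1 and Meis3 sit wholly lower with BMP7, Pbx3 wholly higher, and only Meis1 passed the adjusted threshold.

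Hox genes are held silent by Polycomb proteins and kept active by Trithorax proteins. Of 28 listed Polycomb genes 24 were tested and none passed in limma, where 3.13% of all tested probe sets did. At an unadjusted p under 0.05 there were 3 of 24, against 21.8% of all tested probe sets, and the median log2 difference was 0.01, against 0.04. The largest differences were in Rybp, a subunit of the histone H2A ubiquitin ligase complex, and Jarid2, which helps bring the H3K27 methyltransferase to its targets. Rybp read 815.2, 977.2, 668.2 and 826.3 on BMP7 arrays, against 384.9, 475.4, 49.6 and 639.2 on Vehicle arrays, with Vehicle array 3 lowest (1.45, limma adjusted p = 0.185). Without Vehicle array 3 Rybp was 0.72 (0.1001) and Jarid2 -0.73 (0.0612), and with the 3'/5' covariate Rybp was 0.62 (0.192). Jarid2 1422698_s_at read 611.3, 549.5, 511.4 and 469.4 on BMP7 arrays, against 807.5, 958.9, 1112.2 and 927.7 on Vehicle arrays. It lay wholly lower with BMP7, at -0.81 (limma adjusted p = 0.0551), and was past the threshold under 4 alternatives. The other Jarid2 probe set, 1450710_at, lay below the filter and overlapped, at 0.09 without the filter (limma adjusted p = 0.957). Of 14 Trithorax and H3K27 demethylase genes 9 had a single-gene probe set, and all 9 were tested. None was called (3.13% of all tested probe sets) and none was under 0.05 without adjustment (21.8%), at a median of 0.06. Their largest differences were in the H3K4 methyltransferases Kmt2a, at -0.42 (limma adjusted p = 0.245), and Kmt2c, at -0.37 (0.311). Without BMP7 array 1 Kmt2a was -0.27 (0.464). Kmt2a, which maintains Hox expression, read 1271.5, 2000.9, 1982.7 and 1783.1 on BMP7 arrays, against 2208.4, 2140.1, 2651.1 and 2319.5 on Vehicle arrays, without overlap.

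Retinoic acid induces Hox genes from the 3' end of a cluster. Of 18 genes of its metabolism and receptors 16 had a single-gene probe set, and only 5 were above the filter. None of the 5 passed in limma (3.13% of all tested probe sets), with 1 under 0.05 without adjustment (21.8%) and a median of 0.15. The receptor Rarg read 4202.2, 6232.4, 6072.4 and 6535.5 on BMP7 arrays, against 3791.5, 2179.8, 2573.3 and 4335.9 on Vehicle arrays. BMP7 array 1 lay below Vehicle array 4, so the groups overlapped (0.87, limma adjusted p = 0.0830), and a second Rarg probe set gave 2.01 (0.101). Rarg passed without Vehicle array 4, at 1.03 (0.0345). The receptor Rara gave 0.36 (limma adjusted p = 0.518), and 0.14 without Vehicle array 2 (0.801). Of 16 upstream axial patterning factors 4 were tested, with none called (3.13% of all tested probe sets) and none under 0.05 without adjustment (21.8%), at a median of 0.12. Egr2, which activates Hox genes in the hindbrain, gave -0.98 (limma adjusted p = 0.457) and Gdf11, a ligand that promotes tail-end Hox expression, 0.54 (0.447), both with overlapping arrays. Leaving out 1 array gave -0.45 to -1.59 for Egr2 and 0.29 to 0.78 for Gdf11, and array weights gave -0.08 for Egr2.

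Genes of other positional programmes were counted in the same fit. Of 23 limb patterning genes 7 were tested and none passed in limma (3.13% of all tested probe sets), with 2 under 0.05 without adjustment (21.8%) and a median of 0.06. Gli3, a repressor of the posterior limb programme, gave 0.998 (limma adjusted p = 0.176) and the mesenchymal homeobox gene Prrx2 0.60 (0.294). Gli3 passed without Vehicle array 4, at 1.38 (0.0301), and was 0.64 without Vehicle array 3 (0.235). Prrx2 was 0.29 without Vehicle array 2 (0.514). Of 23 cranial and visceral position factors 9 were tested, 1 rose (Dlx2) and none fell, where 1.63% of all tested probe sets rose and 1.5% fell. At an unadjusted p under 0.05 there were 5 of 9, against 21.8% of all tested probe sets, and the median was 0.29. Dlx2, a homeobox gene of the pharyngeal arches and forebrain, read 1692.3, 2240.3, 1492.7 and 1666.9 on BMP7 arrays, against 522.5, 678.1, 446.8 and 439.0 on Vehicle arrays. The lowest BMP7 array lay above the highest Vehicle array, and the 3.34-fold rise, 1.74 ± 0.22 on the log2 scale, had a limma adjusted p of 0.00311.

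**Figure D5:**
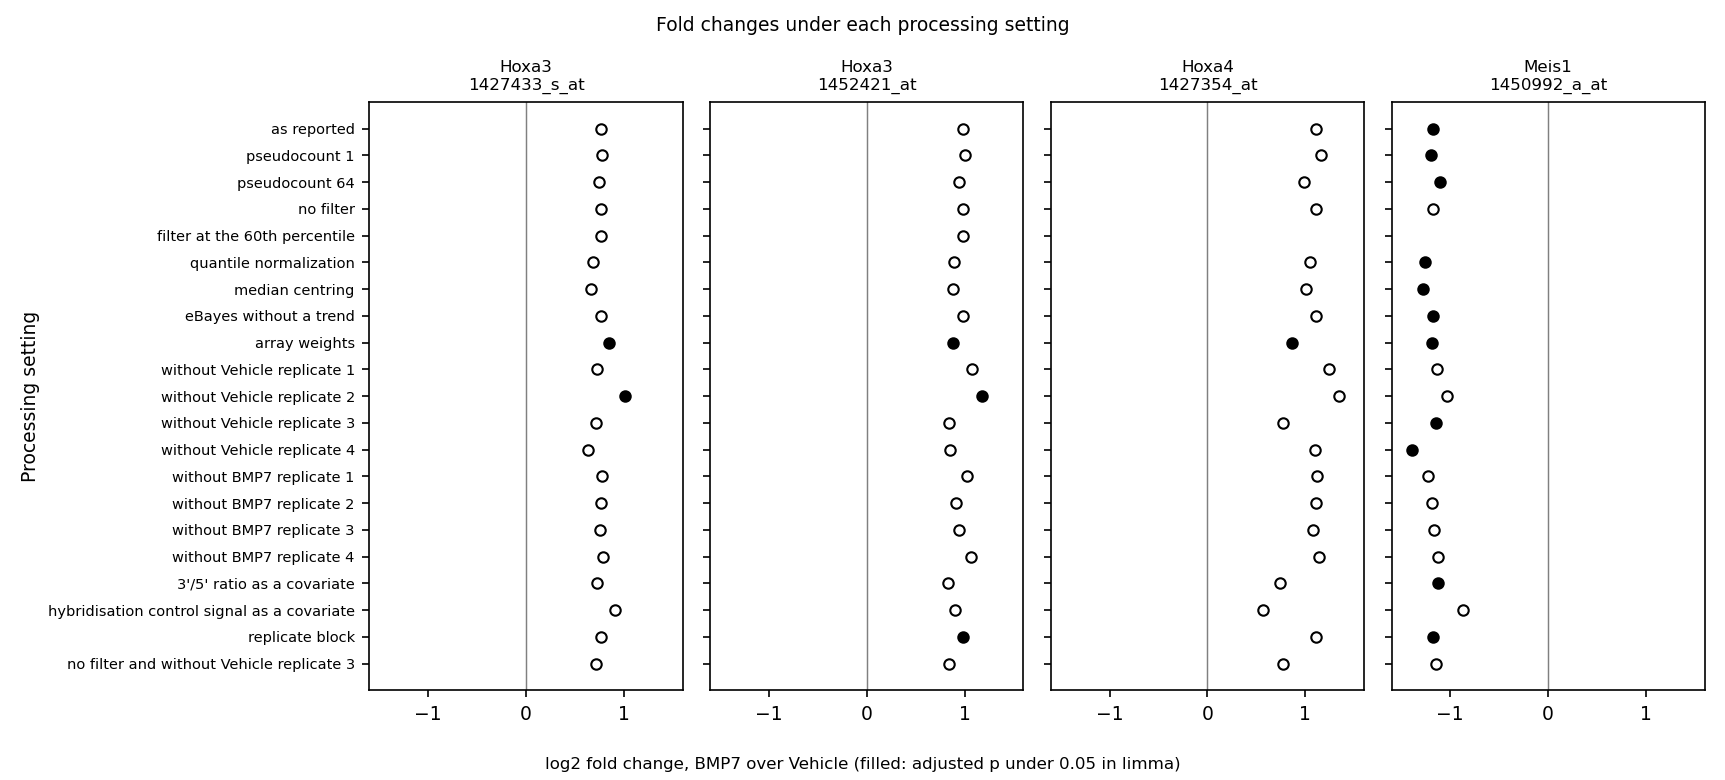
Log2 fold change, BMP7 over Vehicle, of both Hoxa3 probe sets, Hoxa4 1427354_at and Meis1 under each processing setting; filled points passed an adjusted p of 0.05 in limma, and a missing point was below the filter. Hoxa3 and Hoxa4 stayed above 0 throughout and were filled with array weights (all 3), without Vehicle array 2 (both Hoxa3) and with the replicate block (Hoxa3 1452421_at).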

How the data were processed

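Gene expression was measured on 8 Affymetrix GeneChip mouse 430A arrays, 4 from BMP7 samples and 4 from Vehicle samples, with groups and replicate numbers taken from the sample titles. The deposited values are an intensity per probe set and array on a linear scale, computed, per the submitters' processing notes, by MAS5, for which no version, scaling target or detection call was given in the sources used here. The trimmed mean of each array (highest and lowest 2% of signals left out) was 1500 to 1501, so the arrays had been scaled alike. The table with 1 column per sample was used; its group means equalled the mean intensities per group that the authors deposited (largest difference 1.46e-11), and 8 signal columns named only by an array code were not used. No separate fit of the other table was therefore run. The authors' deposited SD per group, ratio and p-value columns were read only where named, and were not recomputed.

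Signals were transformed to log2(signal + 16) and probe sets other than the 64 controls were filtered at the 40th percentile of the mean. Some passed through their higher group, with the mean of the lower group under the filter, Hoxa4 1427354_at, Meis3 and Rybp among them. The 13576 probe sets above it were tested two-sided with limma 3.58.1 (lmFit, eBayes with an intensity trend) in R 4.3.3, which was checked on simulated data; Benjamini-Hochberg adjustment ran over all of them, with a threshold of 0.05. Fold changes are on this log2 scale and understate the change of low signals. The number of arrays limits the precision. A gene of a list was represented by its tested probe set of highest mean, while all probe sets of a Hox gene are given. Some listed genes had no single-gene probe set. Those with at least 1 were 25 of 28 Polycomb, 15 of 16 axial, 21 of 23 limb and 22 of 23 cranial genes.

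The members and lists were chosen with earlier results of these data known. Named by rule were all Hox probe sets, with values on every array for those tested, those without overlap and those beside the filter; in each list, up to 3 called genes per direction or, with none called, the 2 largest differences. Hoxa13, Hoxb2, Hoxd4, Hoxd9, the cofactors other than Meis1 and the genes of the last section were named after their values were seen. Gene symbols are those of the deposited annotation, updated through RefSeq: of 21453 single-gene probe sets 20828 matched, and 481 list several genes. Promoters came from RefSeq (GRCm38.p6). Some genes of the Hox family and of the lists are not reported here, and counts leave them out. In all, 20 alternatives were run, 1 of them added after seeing the data. Same-numbered BMP7 and Vehicle samples were not treated as pairs.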

Additional observations from a re-analysis of the deposited data

Results flagged for a closer look

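Within groups of 4 arrays, the gap of the highest or lowest array to its nearest neighbour was divided by the range. Gap and range were taken on the log2 scale used for the tests, and the ratio was set against Dixon's 95% critical value. The signals given with each ratio are linear, so the ratios cannot be read from them directly, and groups exceeding it on linear signals were not counted. On the log2 scale 8 of 106 groups exceeded the critical value, where chance gives about 1 in 20. Of these 8, 7 were Hox probe sets and 1 rested on Vehicle array 3. Hoxd4 reached 0.859 in the Vehicle group, with 145.7 on Vehicle array 3 and 19.8 to 28.3 on the others. Hoxd11 reached 0.872 in the Vehicle group through array 1 (56.6, others 21.6 to 24.9).

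In the BMP7 group the low arrays were array 2 for Hoxa7 (ratio 0.887, 102.4 against 288.8 to 327.9), array 3 for Hoxa13 (0.913, 132.3 against 245.3 to 259.7), array 1 for Hoxb4 1460379_at (0.870, 220.4 against 323.0 to 341.8) and array 3 for Hoxd10 (0.849, 4.2 against 54.7 to 72.4). Hoxd13 had a high BMP7 array 4 (0.881, 61.9 against 14.3 to 17.9). The retinoic acid receptor Rarg had a low BMP7 array 1 (0.833, 4202.2 against 6072.4 to 6535.5). Of these 8 groups, only that of Rarg belongs to a probe set above the signal filter.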

How the results depend on the processing

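Of 427 values of the 22 single probe sets over 20 alternatives, 381 kept their sign and their side of the threshold, 13 came to pass it, 9 ceased to and 24 changed sign; the cause was not tested. The log2 differences of Hoxa3 were 0.84 to 1.18 (1452421_at) and 0.64 to 1.01 (1427433_s_at), and those of Hoxa4 1427354_at 0.57 to 1.34, with adjusted p of 0.0173 to 0.415, 0.0127 to 0.362 and 0.0384 to 0.692. Dlx2 passed under all 20 (1.62 to 1.87). Hox calls, 0 as reported, were 3 with array weights (in which Vehicle array 3 has the weight 0.172), 1 with the replicate block and 0 to 2 leaving out 1 array. Calls over all tested probe sets, 425 as reported, were 1778 with array weights, 652 with the replicate block, 50 with the hybridisation covariate and 97 to 1079 leaving out 1 array; median centring made 39.6% of them higher with BMP7, against 52.0%, and moved the median log2 difference of all tested probe sets to -0.07, and the share was 38.1% to 64.7% leaving out 1 array. The replicate block pairs arrays by number only. In deviations from the group means, same-numbered arrays correlated at r = 0.383, 0.0365, 0.152 and 0.187. BMP7 array 2 correlated better with Vehicle array 4 (0.114). All other pairs of different numbers were negative, down to -0.223 for Vehicle array 4 with BMP7 array 1. Each Vehicle array correlated best with the BMP7 array of its own number. The labels state no pairing, and whether the samples were made in pairs was not tested.

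Cofactor calls, 1 as reported, were 0 without the filter, at the 60th percentile filter (where Meis1 is not tested), with the hybridisation covariate, and without both the filter and Vehicle array 3 (the setting added after seeing the data), 2 with array weights and 0 to 1 leaving out 1 array. Polycomb calls, 0 as reported, were 1 with quantile normalization, median centring and no trend, and 2 with array weights. Retinoic acid calls, 0 as reported, were 1 without the filter, with array weights and in the added setting, and 0 to 1 leaving out 1 array; limb calls, 0 as reported, were 1 with array weights and in the added setting, and 0 to 1 leaving out 1 array. Cranial calls, 1 as reported, were 2 with a pseudocount of 64, quantile normalization, median centring, no trend, the 3'/5' covariate and the replicate block, 3 without the filter and with array weights, 4 in the added setting, and 1 to 3 leaving out 1 array. Trithorax and axial calls were 0 in all 20.

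Signs changed with median centring for Hoxa2 (-0.012) and Hoxc6 1427361_at (-0.057), with quantile normalization for Hoxc6 1427361_at (-0.046), and with array weights for Hoxa2 (-0.069) and Hoxc6 1427362_x_at (0.018). With the hybridisation covariate they changed for Hoxa5 (0.27), Hoxa9 (0.077), Hoxa10 (0.021), Hoxc6 1427361_at (-0.079), Hoxc6 1427362_x_at (0.44), Rybp (-0.25) and Gli3 (-0.051), with the 3'/5' covariate for Hoxa5 (0.0074) and Hoxc6 1427362_x_at (0.10), and in the added setting for Hoxc6 1427362_x_at (0.063). Leaving out 1 array gave -0.043 to 0.23 for Hoxa2, -0.24 to 0.0036 for Hoxa10, -0.25 to 0.043 for Hoxa11, -0.085 to 0.17 for Hoxc6 1427361_at and -0.33 to 0.12 for Hoxc6 1427362_x_at.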

Other observations

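Among the listed positional genes below the filter, 3 passed limma's adjusted threshold when all 22626 probe sets were tested, of which 1.54% passed. Of genes with a single-gene probe set, the filter had kept 6 of 8 cofactors, 24 of 25 Polycomb and 9 of 9 Trithorax genes. It had kept 5 of 16 retinoic acid, 4 of 15 axial, 7 of 21 limb and 9 of 22 cranial genes. Dhrs3, a retinaldehyde reductase that lowers retinoic acid synthesis, read 769.3, 1078.9, 1086.7 and 511.7 on BMP7 arrays, against 60.1, 52.0, 167.3 and 74.6 on Vehicle arrays. The groups lay far apart, at a log2 difference of 3.13 ± 0.41 (adjusted p = 0.00494). Dlx1, the neighbour and paralogue of Dlx2, read 683.9, 492.2, 573.0 and 578.1 on BMP7 arrays, against 169.4, 157.8, 122.0 and 116.2 on Vehicle arrays, a log2 difference of 1.93 ± 0.30 (adjusted p = 0.0107). Meox1, a homeobox gene of the somites, read 120.3, 223.1, 76.3 and 73.1 on BMP7 arrays, against 483.2, 447.7, 621.1 and 775.7 on Vehicle arrays, a log2 difference of -2.19 ± 0.40 (adjusted p = 0.0225). The arrays of the 2 groups did not overlap for any of these 3 genes, and all 3 also passed when Vehicle array 3 was left out as well.

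One probe set that lists both Hoxb7 and Hoxb8 read 176.4, 292.1, 279.4 and 92.0 on BMP7 arrays, against 70.9, 234.0, 35.5 and 31.7 on Vehicle arrays. The groups overlapped through Vehicle array 2, and the log2 difference without the filter was 1.29 ± 0.58 (limma adjusted p = 0.297). The single-gene Hoxb7 probe set gave -0.25.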
